A study of Homo sapiens with 9 samples.

Results

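Target genes of p53 were followed in SKMEL28 cells, a human melanoma line, after knockdown of p16 and after combined knockdown of p16 and the checkpoint kinase ATR. The set holds 34 genes chosen by symbol from the literature on p53, with earlier results of these data known. The count table holds 48162 genes, and 32 of the 34 were expressed highly enough to be tested. RNA was sequenced from 3 groups of cells, each with 3 libraries. Every group was transduced with lentivirus carrying a short hairpin RNA and selected in puromycin: shCont cells carried a hairpin against GFP, shp16 cells a hairpin against p16 (encoded by CDKN2A), and shp16/shATR cells hairpins against both p16 and ATR. Cells grew in DMEM with fetal bovine serum, with no damaging agent named in the labels. Within a group the libraries are technical repeats from a single experiment, by the study's account, so a p-value here measures spread between libraries and not between cultures. No group analysed here carried the ATR hairpin alone.

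p53 is a transcription factor that is stabilised when kinases such as ATM and ATR signal DNA damage. It then raises genes that stop the cell cycle, such as CDKN1A, genes that act back on p53 itself, such as MDM2, and genes of cell death and DNA repair. Most of these genes also answer to other factors, and p53 protein or its binding to DNA was not measured in these libraries. p16 blocks the kinases CDK4 and CDK6, and p21, the product of CDKN1A, is likewise an inhibitor of cyclin-dependent kinases. The study compared shp16 with shCont cells as a model of cells with DNA damage signalling, and shp16/shATR with shp16 cells to see what depended on ATR.

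Library totals lay between 17314662 and 23588174 counts. ATR was at 93.5, 83.4 and 85.6 CPM (counts scaled to library size with TMM normalisation) in the shp16 libraries and at 39.9, 40.0 and 41.0 CPM in the shp16/shATR libraries, a log2 fold change of -1.12 ± 0.22 (SE; edgeR quasi-likelihood test, Benjamini-Hochberg adjusted p = 0.013). CDKN2A was at 162, 113 and 103 CPM in shCont and at 78.1, 93.5 and 99.9 CPM in shp16 cells, a log2 fold change of -0.48 ± 0.16 that did not pass the threshold of 0.05 (adjusted p = 0.072). CDKN2A also encodes p14ARF from the same locus, and a count per gene does not separate the transcripts. Markers of melanocytic cells were all present, 8 of 8, and summed to between 7769 and 15002 CPM per library, the lowest in shp16 1, where PMEL was at 3258 CPM against 7839 and 7763 CPM in the other shp16 libraries. Of these markers, TYRP1 was lower in all 3 comparisons (-0.43 in shp16 against shCont, -0.88 in shp16/shATR against shp16 and -1.31 in shp16/shATR against shCont, adjusted p = 0.023, 0.0014 and 1.4e-05). S100B was lower by 0.68 on the log2 scale in shp16 cells than in shCont cells and higher by 0.67 in shp16/shATR than in shp16 cells (adjusted p = 0.013 and 0.025). Estimates of MLANA were positive, at 0.08 in shp16 against shCont, 0.24 in shp16/shATR against shp16 and 0.32 in shp16/shATR against shCont. None of these passed (adjusted p = 0.70, 0.33 and 0.084), although its shp16/shATR libraries lay above all others. MITF, PMEL, TYR, DCT and SOX10 did not pass in any comparison. Of markers of other cell types, the keratinocyte keratins KRT1, KRT5 and KRT14 moved with the groups: they summed to between 0 and 0.154 CPM in shCont, with KRT1 and KRT5 at 0 in all libraries of that group, to between 6.19 and 14.9 CPM in shp16 and to between 2.82 and 8.88 CPM in shp16/shATR libraries. The fibroblast marker DCN was at 0.0884 to 0.308 CPM in shCont, 0.208 to 0.901 CPM in shp16 and 0.519 to 0.974 CPM in shp16/shATR libraries, and passed in shp16/shATR against shCont (2.14 ± 0.63, adjusted p = 0.027). DCN rested on 2 to 21 counts per library. LUM, a fibroblast marker at higher levels, was at 41.8, 32.3 and 35.8 CPM in shCont and at 30.6, 28.0 and 29.6 CPM in shp16/shATR libraries. Its log2 fold change of -0.32 ± 0.18 between these groups pointed the other way from DCN and did not pass (adjusted p = 0.22). PDGFRA, also on the fibroblast list, was too low to be tested. The part of these markers in the results was not tested.

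The first shCont library stood apart from the other shCont libraries, and the deviation of the p53 targets in it followed gene length. Its log2 ratio to the mean of shCont 2 and 3 ran from -0.95 to 0.78 over the 32 targets, and its Spearman correlation with gene length was -0.77 over these targets and -0.43 over all 15776 genes tested. These are correlations across genes of 1 library, and genes are not independent replicates. Long transcripts such as MDM2 (36.2 CPM in shCont 1 against 61.9 and 63.7 CPM in shCont 2 and 3) and TP53INP1 (10.3 against 20.1 and 21.5 CPM) were low in it, and short transcripts such as PHLDA3 (242 against 152 and 129 CPM) were high. ATR was at 45.9 CPM there and at 93.5 and 96.4 CPM in the other shCont libraries. CDKN2A, with a length of 1283 bases, was at 162 CPM there and at 113 and 103 CPM in the other shCont libraries. Its estimate in shp16 against shCont therefore rests in part on shCont 1. The first shp16 library stood apart less, with a correlation of 0.32 over the targets. Results were therefore also computed without shCont 1, and without both libraries, as choices made after the data were seen. A part of RNA quality in this pattern was not tested.

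**Figure D1:**
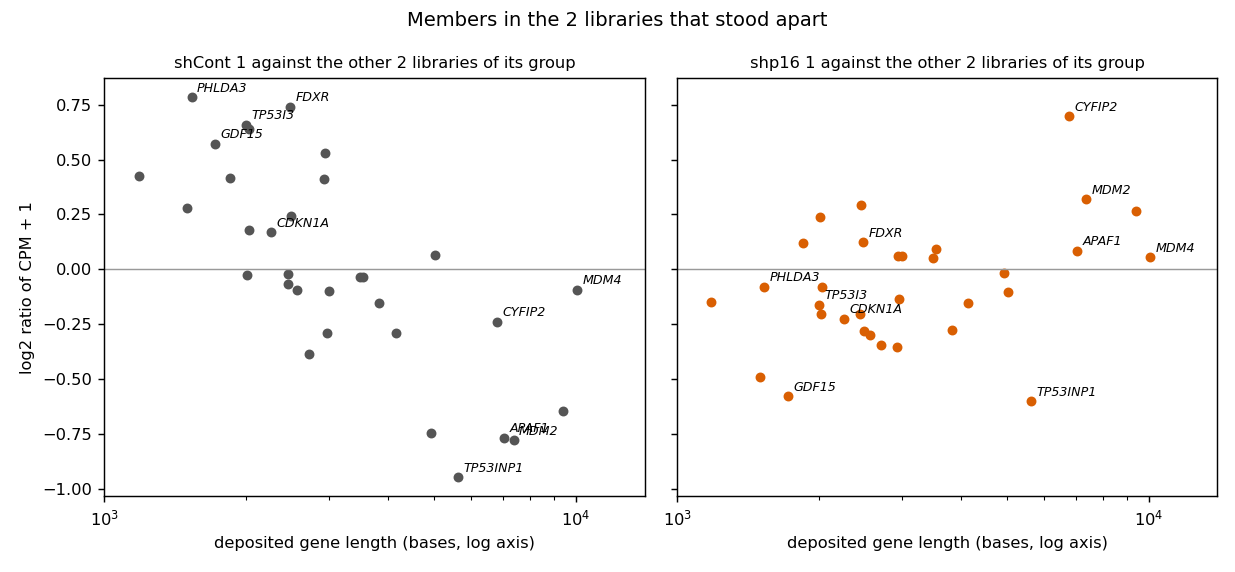
Log2 ratio of CPM + 1 in shCont 1 (left) and shp16 1 (right) to the mean of the other libraries of the same group, against deposited gene length in bases on a log axis, with 1 point per p53 target. In shCont 1 the points run from 0.78 for PHLDA3 down to -0.95 for TP53INP1, and fall with length.

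Levels per transcript length differed widely between targets. By FPKM (fragments per kilobase of transcript, scaled to library size), GDF15, a secreted stress cytokine, was the highest with a mean of 148 over the 9 libraries, followed by PHLDA3 at 98.6, PERP at 69.4 and CCNG1 at 54.6. CDKN1A stood at 13.3, MDM2 at 7.63, FAS at 2.34, BTG2 at 1.21 and CYFIP2 at 1.08. SPATA18 was not tested, with 1 count in all libraries together, and neither was the TRAIL receptor TNFRSF10A, with 21 counts in all, so changes in these genes were not detectable at this depth. The other TRAIL receptor, TNFRSF10B, was at a mean of 14.9 FPKM.

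**Figure D2:**
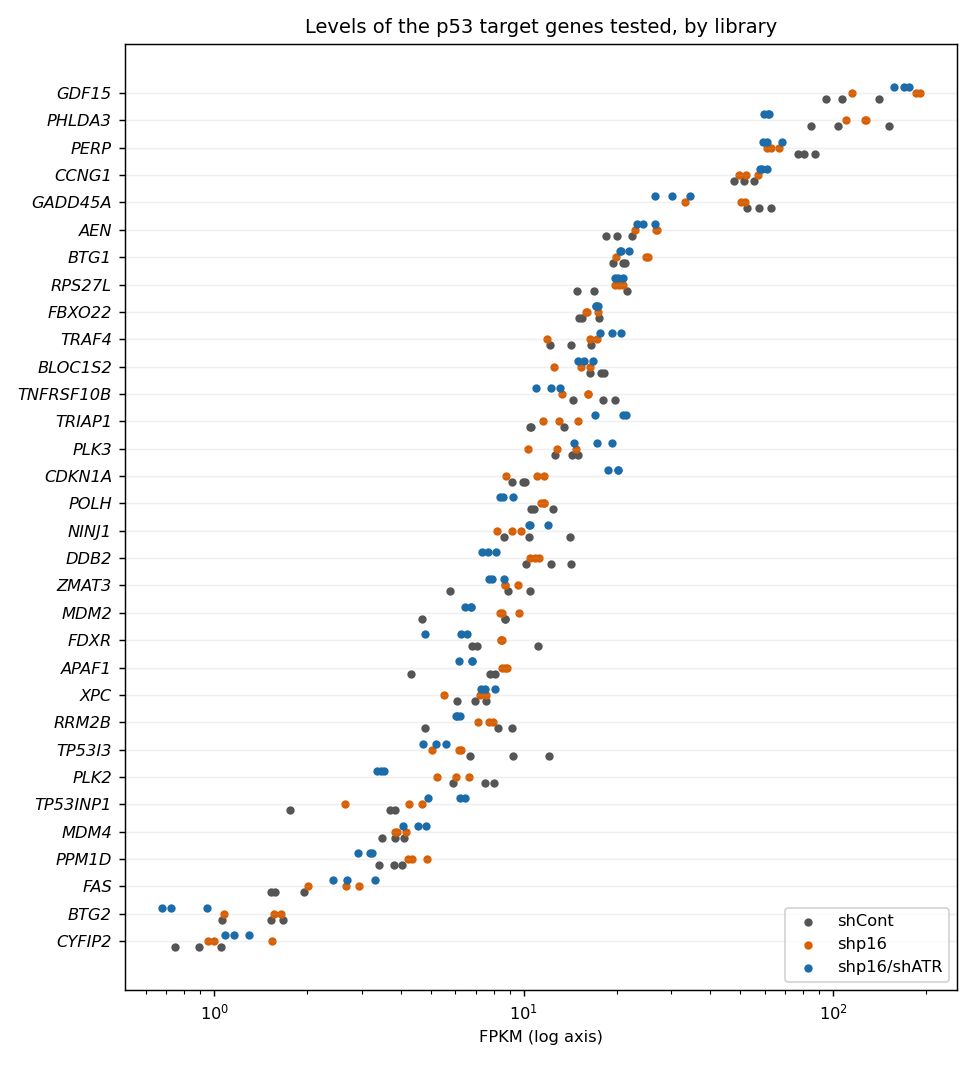
FPKM of the 32 tested p53 targets on a log axis, ordered by mean level, with 1 point per library and the groups in separate colours. Levels run from 1.08 for CYFIP2 to 148 for GDF15, and the blue shp16/shATR points stand to the right for CDKN1A and to the left for PHLDA3 and PLK2.

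The promoters of the targets are shown because p53 binds DNA through a defined 10-base motif, 2 copies of which make up a full site. RefSeq promoters (GRCh38.p14, 250 bases before to 50 after the start) were matched for 27 of the 34 genes. The 10-base p53 motif, searched as its full consensus with no mismatch (it is its own reverse complement, so a match holds for both strands), stood in 4 of the 27 (14.8%), against 6.63% of 35116 promoters. With up to 2 mismatches in all, 2 copies at most 13 bases apart stood in 3 of the 27 (11.1%), those of FDXR, AEN and CCNG1, against 7.82% of all promoters. The GC box, GGGCGG on either strand, stood in 24 of 27 (88.9%) against 45.0% of all promoters. Here and below, each matched target entered with its first listed promoter only, while the shares over all promoters count every listed start of every gene. The shares are therefore not of like sets, and no difference between them was tested. These matches are descriptions of letters in a window, and the best known p53 sites of several targets, CDKN1A among them, lie outside such windows. The 4 exact matches are printed in capitals, each within 50 bases of its promoter, for FDXR (chr17:74872976-74873025, minus strand), PLK2 (chr5:58460189-58460238, minus strand), AEN (chr15:88621286-88621335, plus strand) and RPS27L (chr15:63157507-63157556, minus strand).
FDXR: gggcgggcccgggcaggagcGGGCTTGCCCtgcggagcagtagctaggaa
PLK2: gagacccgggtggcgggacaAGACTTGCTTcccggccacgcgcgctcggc
AEN: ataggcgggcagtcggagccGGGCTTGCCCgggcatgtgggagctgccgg
RPS27L: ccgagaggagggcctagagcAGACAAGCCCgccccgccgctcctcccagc

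Knockdown of p16 alone moved few p53 targets. Of the 32 tested, 3 passed the threshold in shp16 against shCont cells (9.38%): the death receptor FAS and the exonuclease AEN were higher and TP53I3, an oxidoreductase tied to p53-induced cell death, was lower. Over all genes 14.8% passed, 7.23% higher and 7.59% lower, so the share among p53 targets was not above the background. The median log2 fold change of the targets was 0.06, beside -0.02 over all genes, and no target changed by as much as 2-fold. Groups did not overlap for 8 of the 32 targets (25.0%), 5 higher and 3 lower, beside 33.6% of all genes.

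FAS stood at 4.06, 4.83 and 4.00 CPM in shCont and at 5.51, 7.35 and 6.68 CPM in shp16 cells. Every shp16 library was above every shCont library. The log2 fold change was 0.60 ± 0.18 (adjusted p = 0.045). AEN, which digests nucleic acid during apoptosis and holds one of the motif matches printed above, stood at 105, 109 and 92.1 CPM in shCont and at 123, 131 and 133 CPM in shp16 cells, a log2 fold change of 0.34 ± 0.10 (adjusted p = 0.048). These groups did not overlap either.

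TP53I3 was at 25.1, 17.7 and 13.3 CPM in shCont and at 10.8, 12.2 and 12.04 CPM in shp16 cells. The shCont libraries were spread over nearly the whole range, with the first of them highest, and all lay above the shp16 libraries. Its log2 fold change was -0.68 ± 0.20 (adjusted p = 0.039), and -0.41 ± 0.14 without shCont 1 (adjusted p = 0.047). All 3 of these calls were close to the threshold. In a fit on the 6 libraries of the groups compared, none of the 32 targets passed with edgeR, beside 7.83% of all genes, with 5 at an unadjusted p under 0.05, and 5 (15.6%) passed by DESeq2 on all libraries, beside 18.6% of all genes. With scaling to library totals alone, 2 passed, both lower, beside 13.3% of all genes.

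Leaving out shCont 1 raised the count to 8 of 32 targets (25.0%), 4 higher and 4 lower, beside 25.9% of all genes, and FAS was not among them (0.56 ± 0.19, adjusted p = 0.051). GDF15 then passed, with 177 and 161 CPM in the remaining shCont libraries and 210, 319 and 310 CPM in shp16 cells (log2 fold change 0.72 ± 0.14, adjusted p = 0.0037). PHLDA3, an inhibitor of AKT signalling, likewise passed at 0.40 ± 0.08 (adjusted p = 0.0044). With shCont 1, at 252 CPM for GDF15 and 242 CPM for PHLDA3, the groups overlapped for both genes, and their log2 fold changes were 0.51 ± 0.19 (adjusted p = 0.089) and 0.10 ± 0.19 (adjusted p = 0.78). Without both shCont 1 and shp16 1, 11 targets passed beside 32.7% of all genes, 8 higher and 3 lower, and TP53I3 was no longer one of them. Leaving out shCont 3 left 1 target past the threshold, leaving out shp16 1 gave 3 with AEN and TP53I3 not among them, and none passed without any one of the other 6 libraries, where 8.29% to 14.3% of all genes passed over these 8 fits.

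CDKN1A, MDM2, MDM4 and ZMAT3 did not pass after p16 knockdown. Nor did GADD45A (log2 fold change -0.36 ± 0.15, adjusted p = 0.13), whose groups did not overlap, or PLK2 (-0.24 ± 0.13, adjusted p = 0.22). PPM1D (0.27, adjusted p = 0.16), TNFRSF10B (-0.19, adjusted p = 0.30), TP53INP1 (0.33, adjusted p = 0.41) and TRIAP1 (0.19, adjusted p = 0.46) did not pass either. DDB2, POLH and BTG2, at -0.16, 0.05 and 0.02, did not pass. CDKN1A was at 23.9, 19.98 and 22.2 CPM in shCont and at 21.2, 24.4 and 25.5 CPM in shp16 cells, overlapping ranges with a log2 fold change of 0.11 ± 0.12 (adjusted p = 0.59). MDM2, the ubiquitin ligase that degrades p53, was at 36.2, 61.9 and 63.7 CPM in shCont and at 76.1, 60.4 and 61.3 CPM in shp16 cells. The first library of each group stood at opposite ends, and the log2 fold change of 0.29 ± 0.19 (adjusted p = 0.33) was 0.06 ± 0.10 without shCont 1. MDM4, the relative of MDM2 that masks p53, was at 36.6, 39.8 and 38.5 CPM in shCont and at 41.1, 41.0 and 38.1 CPM in shp16 cells (0.07 ± 0.10, adjusted p = 0.71). ZMAT3, which encodes an RNA-binding zinc finger protein, was at 56.6, 80.9 and 97.5 CPM in shCont and at 95.9, 79.6 and 79.8 CPM in shp16 cells, again with shCont 1 apart (0.12 ± 0.17, adjusted p = 0.69).

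Adding the ATR hairpin to p16 knockdown split the p53 targets in both directions. In shp16/shATR against shp16 cells, 6 of the 32 passed (18.8%) beside 6.22% of all genes: CDKN1A and TRIAP1 were higher, where 2.73% of all genes were, and PLK2, PHLDA3, PPM1D and POLH were lower, where 3.49% of all genes were. The median log2 fold change was -0.04, beside 0.00 over all genes, and the targets ran from -0.99 to 0.91. The groups did not overlap for 19 of 32 targets (59.4%), 7 higher and 12 lower, beside 37.7% of all genes. The set was listed with earlier results of these data known, so its shares are descriptions and not a test of the set. This comparison shares the shp16 libraries with the one above, so low values in those libraries enter both with opposite sign.

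CDKN1A encodes p21, the inhibitor of cyclin-dependent kinases that carries much of the arrest by p53. It stood at 21.2, 24.4 and 25.5 CPM in shp16 and at 42.3, 44.8 and 46.3 CPM in shp16/shATR cells, means of 23.7 ± 2.25 and 44.5 ± 2.05 CPM (SD, n = 3). Every shp16/shATR library was above every shp16 and every shCont library, and the rise was 1.88-fold (log2 fold change 0.91 ± 0.12, adjusted p = 0.0014). CDKN1A passed in all 20 alternatives computed for this comparison, with log2 fold changes between 0.83 and 0.96. Its gene lies on chromosome 6 from 36644305 to 36655116 in the deposited coordinates, on the plus strand. Its promoter holds 4 GC boxes, as many or more of which stood in 6 of the 27 promoters matched (22.2%) and in 9.06% of all promoters. The stretch from 150 bases before to 50 after the start (chr6:36678564-36678763, GRCh38.p14, plus strand) is printed with the GC boxes in capitals, the last 2 of which overlap. No exact 10-base p53 motif stood in it.
CDKN1A: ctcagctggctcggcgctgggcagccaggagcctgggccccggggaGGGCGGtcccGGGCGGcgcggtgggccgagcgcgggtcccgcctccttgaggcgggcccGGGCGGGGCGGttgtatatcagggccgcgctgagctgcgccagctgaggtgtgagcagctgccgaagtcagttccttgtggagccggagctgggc

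The other cell cycle genes were lower than in shp16 cells or did not pass. PLK2, a polo-like kinase of the stress response whose promoter holds the motif printed above, was at 16.6, 17.5 and 19.2 CPM in shp16 and at 9.92, 10.3 and 10.5 CPM in shp16/shATR cells. It fell without overlap to 0.577 of the shp16 level (log2 fold change -0.79 ± 0.13, adjusted p = 0.0051) and passed in all 20 alternatives. GADD45A, which binds PCNA and p21 and acts in arrest and repair, was at 52.8, 75.7 and 73.5 CPM in shp16 and at 44.9, 50.7 and 40.5 CPM in shp16/shATR cells. Its groups did not overlap, but the first shp16 library lay near the lower group, and the log2 fold change of -0.57 ± 0.15 missed the threshold (adjusted p = 0.0504). BTG2, an antiproliferative regulator of messenger RNA decay, was at 3.12, 4.13 and 4.34 CPM in shp16 and at 1.96, 1.82 and 2.61 CPM in shp16/shATR cells (-0.86 ± 0.24, adjusted p = 0.055). The kinase PLK3 had a positive estimate, 0.43 ± 0.14, that did not pass (adjusted p = 0.098).

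Among the genes that act back on p53, the phosphatase PPM1D fell. PPM1D removes phosphates that ATM and ATR place on p53 and its partners. It was at 13.9, 14.2 and 12.4 CPM in shp16 and at 9.52, 9.52 and 8.87 CPM in shp16/shATR cells, with no overlap, a log2 fold change of -0.54 ± 0.12 (adjusted p = 0.025) and a call in 10 of 20 alternatives. MDM2 was at 47.6, 49.1 and 50.8 CPM in shp16/shATR cells, below all shp16 libraries, with a log2 fold change of -0.42 ± 0.19 that did not pass (adjusted p = 0.23). Without shCont 1 the same estimate had a standard error of 0.09 and passed (adjusted p = 0.0063). MDM4 was at 45.7, 48.1 and 41.7 CPM in shp16/shATR cells, above all shp16 libraries, and also did not pass (0.17 ± 0.10, adjusted p = 0.38). The span of MDM2 from gene start to end, introns included, shares 3238 bases with that of carboxypeptidase M on the opposite strand. The sources used here do not say whether strand was used in counting.

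Genes of cell death and survival moved both ways. PHLDA3 stood at 180, 191 and 189 CPM in shp16 and at 91.2, 93.5 and 96.1 CPM in shp16/shATR cells, a fall to 0.502 of the shp16 level with tight replicates on both sides (log2 fold change -0.99 ± 0.19, adjusted p = 0.011). The fall in PHLDA3 passed in 18 of 20 alternatives and missed without shp16/shATR a (adjusted p = 0.063) and without shp16/shATR b (adjusted p = 0.061). TRIAP1, a small p53-induced protein of the mitochondria that favours survival, was at 14.5, 15.03 and 17.3 CPM in shp16 and at 20.01, 24.3 and 25.8 CPM in shp16/shATR cells. The groups did not overlap, and the log2 fold change was 0.58 ± 0.16, just inside the threshold (adjusted p = 0.049), with a call in 9 of 20 alternatives. TP53INP1, a p53 partner in cell death and autophagy, was at 15.9, 23.5 and 25.8 CPM in shp16 and at 36.3, 34.5 and 28.1 CPM in shp16/shATR cells, which did not pass (0.60 ± 0.25, adjusted p = 0.20).

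Neither tested death receptor passed when ATR was knocked down. FAS was at 6.17, 8.35 and 7.02 CPM in shp16/shATR cells, overlapping the shp16 libraries (0.14 ± 0.18, adjusted p = 0.72). TNFRSF10B was at 58.5, 65.2 and 65.4 CPM in shp16 and at 50.9, 53.5 and 46.3 CPM in shp16/shATR cells. Those groups stood apart, with a log2 fold change of -0.33 ± 0.12 that did not pass (adjusted p = 0.13). AEN (117, 132 and 124 CPM), PERP (123, 117 and 140 CPM) and TP53I3 (9.46, 11.0 and 10.6 CPM) overlapped the shp16 libraries, with log2 fold changes of -0.05, -0.02 and -0.17. GDF15, at 292, 298 and 275 CPM, was likewise within the range of the shp16 libraries (0.04 ± 0.18, adjusted p = 0.93).

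Of the 4 DNA repair genes, POLH passed. POLH encodes the translesion polymerase that copies past ultraviolet lesions, and it was at 42.9, 40.2 and 40.2 CPM in shp16 and at 32.5, 29.3 and 30.8 CPM in shp16/shATR cells. The groups were well apart, with a log2 fold change of -0.41 ± 0.10 (adjusted p = 0.034) and a call in 10 of 20 alternatives. The span of POLH from gene start to end, introns included, shares 13649 bases with that of GTPBP2 on the opposite strand. GTPBP2 had a mean of 28.1 FPKM against 10.5 FPKM for POLH. DDB2, a sensor of ultraviolet damage, was at 21.3, 18.9 and 20.2 CPM in shp16 and at 13.6, 14.8 and 14.4 CPM in shp16/shATR cells (-0.50 ± 0.14, adjusted p = 0.067). RRM2B, the p53-inducible subunit of ribonucleotide reductase, and XPC, another damage sensor, had estimates of -0.31 and 0.17 that did not pass.

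The count in this comparison depended on the first shCont library, although it belongs to neither group, since all libraries share 1 estimate of spread. That spread, the biological coefficient of variation, was 0.149 with shCont 1 and 0.0901 without it. Without shCont 1, 17 of 32 targets passed (53.1%), 5 higher and 12 lower, beside 19.9% of all genes, and all 6 genes above were among them. In a fit on the 6 libraries of these groups alone, 17 also passed beside 18.9% of all genes, again with all 6. Without both shCont 1 and shp16 1, 19 passed, 6 higher and 13 lower, beside 26.7% of all genes. DESeq2 on all libraries gave 10 (31.2%) beside 9.56% of all genes. With scaling to library totals alone, 5 passed, 1 higher and 4 lower, beside 5.71% of all genes. Leaving out shp16/shATR a or shp16/shATR b lowered the count to 2 targets, and leaving out shp16 2, shp16 3 or shp16/shATR c lowered it to 3. Without shCont 2 or shp16 1 it was 4, and without shCont 3 it was 8. Over these 8 fits 1.81% to 5.94% of all genes passed.

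**Figure D3:**
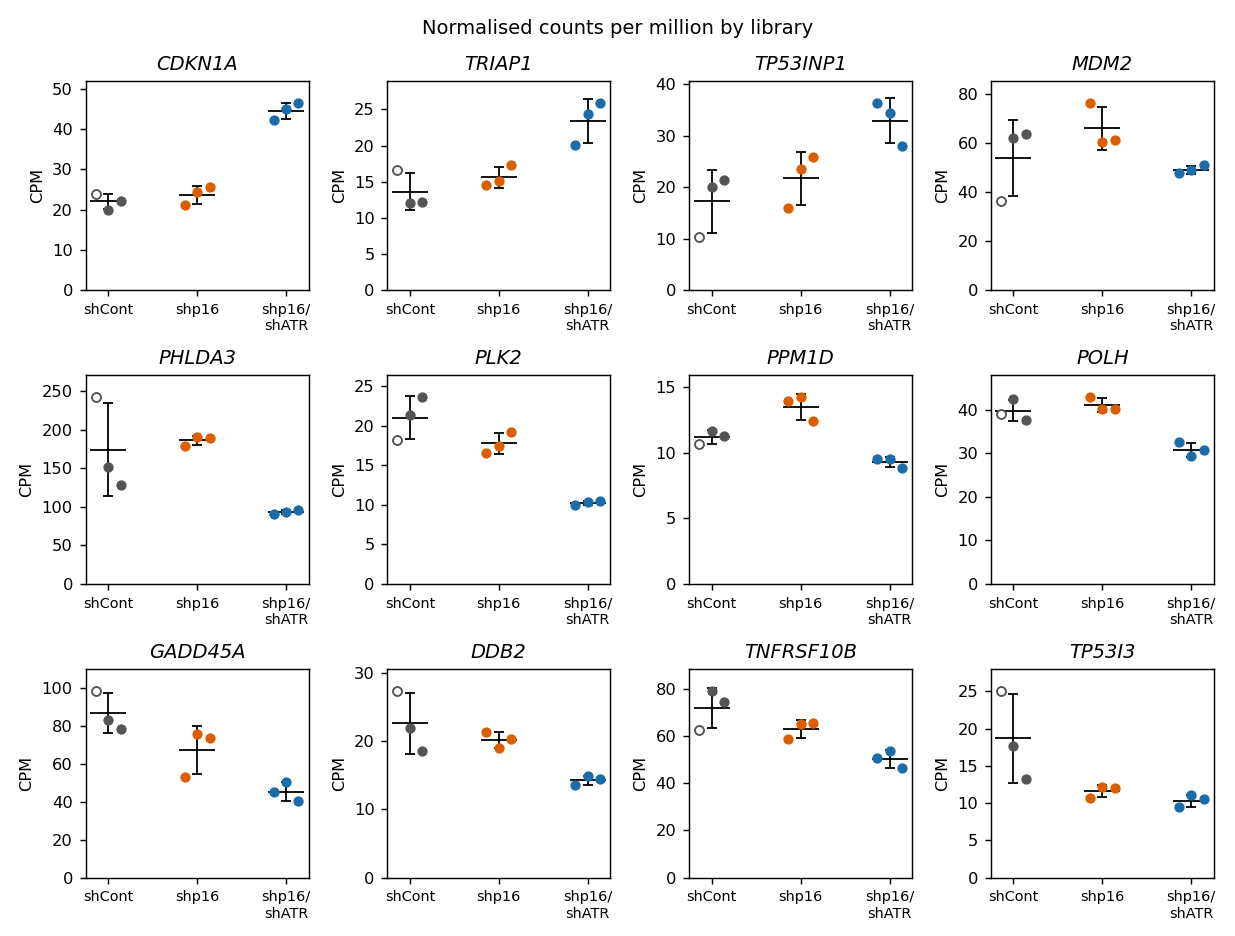
CPM of 12 p53 targets in each library, on axes that start at 0, with horizontal bars for the mean and whiskers for the SD of 3 libraries and shCont 1 as an open circle. CDKN1A is at 42.3 to 46.3 CPM in shp16/shATR cells and at or below 25.5 CPM elsewhere, PHLDA3 and PLK2 fall in the same cells, and the open circle lies apart for MDM2, TP53INP1 and PHLDA3.

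Combined knockdown was also set against control cells. In shp16/shATR against shCont cells, 13 of 32 passed (40.6%) beside 23.6% of all genes. CDKN1A, TRIAP1, TP53INP1 and FAS were higher, where 10.9% of all genes were, and PLK2, GADD45A, PHLDA3, TP53I3, BTG2, DDB2, TNFRSF10B, PERP and POLH were lower, where 12.7% of all genes were. The groups did not overlap for 21 of the 32 targets (65.6%), 11 higher and 10 lower, beside 41.5% of all genes. The median log2 fold change was -0.01, beside -0.02 over all genes. This comparison shares its libraries with the other comparisons and is not separate evidence for a gene already described. Its shares are likewise descriptions, since the set was listed with earlier results known.

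CDKN1A rose 2.02-fold (log2 fold change 1.01 ± 0.12, adjusted p = 9.99e-05) and PLK2 fell to 0.488 of its shCont level (-1.04 ± 0.13, adjusted p = 0.00021). The shCont libraries of PLK2 were at 18.2, 21.3 and 23.6 CPM. CDKN1A and PLK2 were the 2 targets that changed by at least 2-fold. TRIAP1, at 16.7, 12.02 and 12.2 CPM in shCont, had a log2 fold change of 0.78 ± 0.16 (adjusted p = 0.0043). TP53INP1 was at 10.3, 20.1 and 21.5 CPM in shCont, and its log2 fold change of 0.93 ± 0.25 (adjusted p = 0.020) was 0.66 ± 0.17 without shCont 1 (adjusted p = 0.010). FAS had a log2 fold change of 0.75 ± 0.18 (adjusted p = 0.011) and missed without shp16/shATR b (adjusted p = 0.062).

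Of the targets lower than in shCont cells, some had intermediate means in shp16 cells. GADD45A had means of 86.7 ± 10.4, 67.3 ± 12.6 and 45.4 ± 5.11 CPM (SD, n = 3) in that order. Its shCont libraries, at 98.3, 83.3 and 78.4 CPM, lay above all others, and the log2 fold change between the outer groups was -0.93 ± 0.15 (adjusted p = 0.0012). TNFRSF10B, at 62.6, 79.0 and 74.3 CPM in shCont, fell between the outer groups by 0.52 ± 0.12 on the log2 scale (adjusted p = 0.0079). PERP, a membrane protein of desmosomes and a p53 effector in cell death, was at 162, 156 and 174 CPM in shCont and at 143, 123 and 120 CPM in shp16 cells. Its estimate of -0.35 ± 0.11 in shp16 against shCont missed the threshold (adjusted p = 0.060), and that of -0.37 ± 0.11 in shp16/shATR against shCont passed (adjusted p = 0.034).

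The remaining falls against shCont cells were those of TP53I3 (-0.85 ± 0.20), PHLDA3 (-0.90 ± 0.19), BTG2 (-0.84 ± 0.24), DDB2 (-0.66 ± 0.14) and POLH (-0.36 ± 0.10), with adjusted p between 0.0052 and 0.024. shCont libraries of BTG2 were at 3.00, 4.37 and 4.10 CPM, of DDB2 at 27.3, 21.8 and 18.6 CPM, and of POLH at 39.1, 42.4 and 37.8 CPM. All of these lay above the shp16/shATR libraries of the same gene. For PHLDA3 and DDB2 the fall was smaller without shCont 1, at -0.59 ± 0.08 and -0.51 ± 0.11, and still passed. TP53I3, which was also highest in shCont 1, ran from -1.05 to -0.58 over the 20 alternatives and passed in all. BTG2 ran from -1.01 to -0.43 and passed in 16 of the 20. PPM1D, which fell against shp16 cells, was at 10.6, 11.7 and 11.3 CPM in shCont, and its log2 fold change against shCont of -0.27 ± 0.12 did not pass (adjusted p = 0.14). GDF15 missed the threshold at 0.55 ± 0.19 (adjusted p = 0.051), and MDM2, MDM4 and ZMAT3 were at -0.13, 0.24 and -0.04 with none passing.

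Without shCont 1, 21 of 32 targets passed in shp16/shATR against shCont (65.6%), 9 higher and 12 lower, beside 33.3% of all genes, and all 13 genes above were among them. Without both shCont 1 and shp16 1, 25 passed, 11 higher and 14 lower, beside 44.3% of all genes. In a fit on the 6 libraries of these groups alone, 12 passed, beside 19.7% of all genes, with PERP and POLH no longer among them, which is below the 17 that passed against shp16 cells in the like fit. Leaving out shp16/shATR b lowered the count to 8, and over the fits without 1 library other than shCont 1, 14.5% to 24.2% of all genes passed. CDKN1A, PLK2, GADD45A, PHLDA3, TRIAP1, DDB2, TNFRSF10B and TP53I3 passed in all 20 alternatives computed for this comparison.

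**Figure D4:**
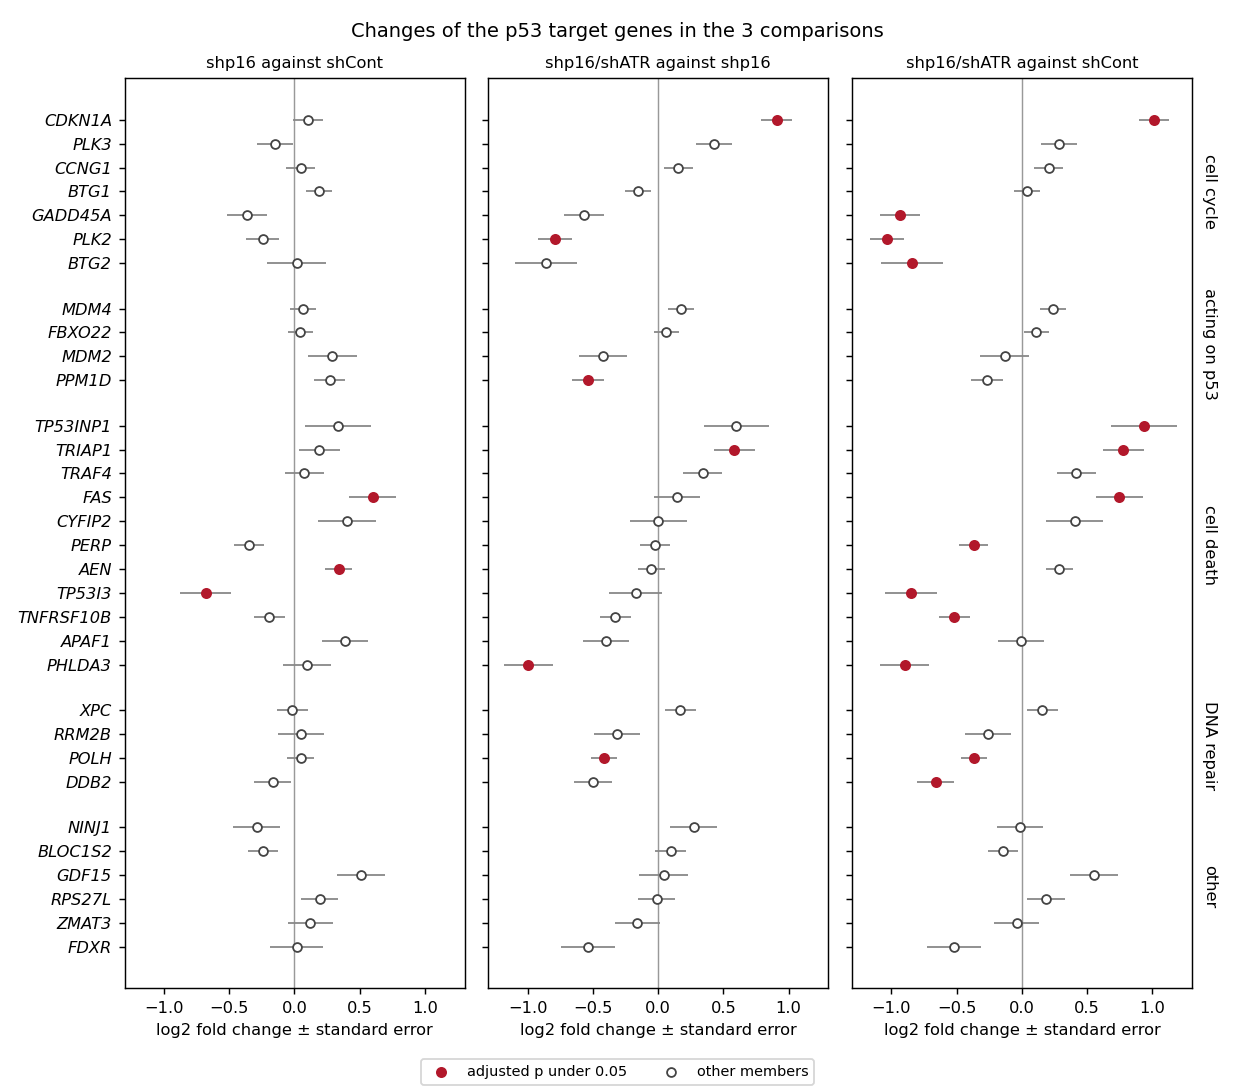
Log2 fold change with its standard error for each of the 32 tested p53 targets in the 3 comparisons, grouped by role, with filled red points for an adjusted p under 0.05. CDKN1A reaches 0.91 and 1.01 in the comparisons of shp16/shATR cells while PLK2 and PHLDA3 lie near -1, and in shp16 against shCont 3 points are filled.

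By role, the cell cycle group of 7 genes had no call after p16 knockdown alone (background 14.8%), 2 in shp16/shATR cells against shp16 (background 6.22%) and 4 in the same cells against shCont (background 23.6%), with CDKN1A the one higher and PLK2, GADD45A and BTG2 the ones lower. The cell death group of 13, with 11 tested, had 3, 2 and 7 calls in the same order. The 4 genes that act on p53 had 0, 1 and 0 calls, and the 4 DNA repair genes had 0, 1 and 2, all lower. The other 6 genes, among them GDF15, ZMAT3 and FDXR, had none in any comparison. With 4 to 11 tested genes a group, no role was tested against the background.

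The 13 tested targets that the naming rule given below left out lay between -0.29 and 0.40 on the log2 scale in shp16 against shCont. They lay between -0.54 and 0.43 in shp16/shATR against shp16, and between -0.52 and 0.42 in shp16/shATR against shCont. None of these passed, with smallest adjusted p of 0.17, 0.098 and 0.062. FDXR, an electron donor to mitochondrial cytochromes P450, had the lowest estimates of these in both comparisons of shp16/shATR cells, and its libraries stood at 28.8, 16.3 and 17.4 CPM in shCont, 22.4, 20.4 and 20.6 CPM in shp16 and 15.5, 11.7 and 16.5 CPM in shp16/shATR cells. RPS27L, a ribosomal protein paralogue induced by p53, overlapped between shp16 and shp16/shATR cells, at 61.8, 60.3 and 58.1 against 61.7, 58.3 and 58.9 CPM. Reads of RPS27L may be shared with its close paralogue. The gene spans of 11 of the 34 targets, introns included, overlap that of another tested gene in the deposited coordinates. TP53INP1 (23440 bases of span shared with NDUFAF6) and TP53I3 (8429 bases shared with FAM228B) are among those named here.

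A second list of 41 p53 targets outside the set, 40 of them tested, was tested in the same fit. In shp16 against shCont, 8 of 40 passed, beside 14.8% of all genes, 3 higher and 5 lower. The cytokine LIF was at 24.5, 25.1 and 23.5 CPM in shCont and at 4.16, 6.92 and 6.78 CPM in shp16 cells (log2 fold change -2.03 ± 0.19, adjusted p = 3.8e-05). IGFBP3, a binding protein for insulin-like growth factors, went from 39.0, 39.2 and 42.4 CPM to 14.1, 14.9 and 13.8 CPM (-1.49 ± 0.11, adjusted p = 5.7e-06). TGFA, a ligand of the EGF receptor, fell by 1.30 and CSF1, a macrophage growth factor at no more than 1.41 CPM in either group, was higher by 1.71 on the log2 scale.

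Of the same 40 genes, 6 passed in shp16/shATR against shp16, beside 6.22% of all genes, 3 higher and 3 lower, and 9 of 40 (22.5%) did in shp16/shATR against shCont, beside 23.6%. FUCA1, a lysosomal fucosidase, went from 95.8, 116 and 111 CPM to 220, 221 and 215 CPM (1.02 ± 0.12, adjusted p = 0.0011). Against shCont cells LIF, IGFBP3 and TGFA were lower by 1.27, 1.62 and 1.55 on the log2 scale, and CSF1 was higher by 2.06.

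Of 20 genes that regulate p53, 4 passed in shp16 against shCont, 2 in each direction, 1 in shp16/shATR against shp16, which was ATR itself, and 5 in shp16/shATR against shCont, 1 higher and 4 lower. The lower ones include both hairpin targets, ATR (-0.96 ± 0.22, adjusted p = 0.0083) and CDKN2A (-0.57 ± 0.16, adjusted p = 0.026). These shares, 20%, 5% and 25%, were near those of all genes, 14.8%, 6.22% and 23.6%. HIPK2, a kinase that phosphorylates p53 in cell death, was at 36.1, 74.4 and 87.7 CPM in shCont, 37.3, 26.5 and 31.0 CPM in shp16 and 16.2, 15.1 and 17.2 CPM in shp16/shATR cells. The first shCont library overlapped the shp16 libraries, and all shp16/shATR libraries were below the rest. The log2 fold change of HIPK2 was -1.06 ± 0.26 in shp16 against shCont (adjusted p = 0.018) and -2.03 ± 0.27 in shp16/shATR against shCont (adjusted p = 0.00028). In shp16/shATR against shp16 it was -0.97 ± 0.26 and missed the threshold (adjusted p = 0.052). HIPK2 has a length of 15049 bases, and long transcripts were low in shCont 1, as described above.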

How the data were processed

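The authors deposited raw read counts per gene, with no normalisation, and FPKM values, scaled to gene length and library size by the authors. The submitters' processing notes list STAR 2.6.1, DESeq2 and GRCh38, but the deposited coordinates are those of GRCh37, since none of the 34 member starts lay near that of RefSeq GRCh38. The 3 shp16/shATR count columns share a name and are called a, b and c. Counts were normalised by TMM, filtered with filterByExpr and tested over 15776 genes with the edgeR 4.0.16 quasi-likelihood test (R 4.3.3) on all 9 libraries, at a Benjamini-Hochberg adjusted p of 0.05. Library pairs of a group differed by more than sampling noise (chi-square test), and all were kept. The test, on simulated counts for shp16 against shCont, was checked for recovery of known changes. Alternatives were DESeq2 1.42.0, limma 3.58.1 on log2(FPKM + 1) and log2(FPKM + 0.1), other scalings, filters and thresholds, a replicate block, and each library left out. Same-numbered libraries correlated in their deviations from group means between -0.30 and 0.29. With 3 libraries a group this cannot settle whether the numbers pair the samples, and the main test used no pairing. Promoters came from RefSeq. The members and lists were chosen with earlier results of these data known. Members were named with values where the adjusted p was under 0.05 in a comparison. CDKN1A, MDM2, MDM4, GADD45A, FAS, TNFRSF10B, ZMAT3, PPM1D and GDF15 were added. Genes of the further lists were named where they passed and changed by at least 1 on the log2 scale. A gene of the further lists that met this rule is not reported here. PLK3, RRM2B, XPC, FDXR and RPS27L were named after their values were seen. Lymphocyte, endothelial and fibroblast markers summed to at most 0.177, 3.12 and 43.7 CPM per library.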

Additional observations from a re-analysis of the deposited data

How the results depend on the processing

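Normalisation by DESeq2 size factors or library size alone and a minimum of 10 counts in every library left each count within 1.5 times. In shp16 against shCont, the count of targets called (3) became 0 at an adjusted p under 0.01, with only the groups compared, with the edgeR replicate block and with shp16 replicates 2 and 3 summed, 5 with DESeq2, 11 without both shCont 1 and shp16 1, 1 with limma on FPKM (either pseudocount or the replicate block), and 0 to 8 leaving out 1 library. The further p53 targets called (8) became 5 at the stricter threshold and with the summed libraries, 3 with the replicate block, 17 without both libraries and 6 to 11 leaving out 1. The p53 regulators called (4) became 0 at the stricter threshold and with the edgeR replicate block, 1 with only the groups compared, with limma on FPKM in its 3 forms and with the summed libraries, 11 without both libraries and 1 to 7 leaving out 1. Against shp16 cells, targets called in shp16/shATR cells (6) became 2 at the stricter threshold, 10 with DESeq2 and with no filter on low counts, 17 with only the groups compared, 3 with the limma replicate block and with the summed libraries, 19 without both libraries and 2 to 17 leaving out 1. The further targets (6) became 2 at the stricter threshold and with the summed libraries, 12 with only the groups compared, 3 with the limma replicate block, 17 without both libraries and 2 to 12 leaving out 1. The regulators (1) became 0 at the stricter threshold and with the limma replicate block, 3 with DESeq2 and with no filter, 4 with only the groups compared, 7 without both libraries and 0 to 4 leaving out 1. In shp16/shATR against shCont, targets (13) became 8 at the stricter threshold, 25 without both libraries and 8 to 21 leaving out 1, further targets (9) became 18 without both and 8 to 16 leaving out 1, and regulators (5) became 2 at the stricter threshold and with the limma replicate block, 3 at an absolute log2 fold change of at least 0.5 and with only the groups compared, 11 without both and 2 to 8 leaving out 1.

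The median log2 fold change of the targets was 0.015 without both libraries in shp16 against shCont, -0.0914 with the summed libraries and -0.10 to -0.017 leaving out 1 library in shp16/shATR against shp16, and -0.0709 to 0.055 leaving out 1 in shp16/shATR against shCont. Signs turned for targets that did not pass. In shp16 against shCont, ZMAT3 was at -0.16, BTG2 at -0.0014 and MDM2 at -0.047 without both libraries, BTG2 at -0.036 with the summed libraries, and ranges leaving out 1 were -0.073 to 0.31 for ZMAT3, -0.14 to 0.15 for BTG2 and -0.082 to 0.40 for PHLDA3. In shp16/shATR against shp16, GDF15 was at -0.13 and PERP at 0.054 without both libraries, with ranges leaving out 1 of -0.13 to 0.14 and -0.10 to 0.059. In shp16/shATR against shCont, the ranges were -0.23 to 0.15 for ZMAT3 and -0.36 to 0.0051 for MDM2. The causes were not tested. The libraries are technical replicates, so none of this tests reproducibility between cultures.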
